A study of Mus musculus with 6 samples.

Results

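The splicing factor and hnRNP genes of TCMK1 cells, a mouse renal tubular epithelial line, were examined with and without overexpression of YOD1, a deubiquitinase of the OTU family. Members were the protein-coding genes whose symbols begin with Srsf, Hnrnp, Snrp, Sf3a, Sf3b or U2af, leaving out names containing -ps. The rule found 55 of the 28789 genes listed. RNA came from 3 libraries of the YOD1 overexpression genotype and 3 of the control genotype, and all 6 received angiotensin II (Ang II). Poly(A) RNA was sequenced in paired ends, and the extraction protocol speaks of adipose RNA while the other labels give the renal line. The labels do not say how YOD1 was introduced, whether the controls carried an empty vector, or whether a group is 1 clone or several cultures. A p-value here therefore reflects the spread among these libraries alone, and that spread may be technical.

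Splicing removes introns in a large complex assembled anew on each transcript. The U1 particle recognises the start of the intron, U2AF marks its end, and the U2 particle with its SF3a and SF3b subcomplexes holds the branch point. Sm proteins form the ring around the RNA of these particles. SR proteins bind exons and usually favour their inclusion, and hnRNPs coat the nascent transcript and often oppose it. Many genes of the SR and hnRNP families regulate themselves by splicing their own transcripts into forms that are degraded by nonsense-mediated decay.

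Values were FPKM, fragments per kilobase of transcript scaled to the mapped total, and the read depth behind them is unknown. A rough estimate from the steps between values under 0.1 FPKM gave YOD1 libraries a depth of 0.804 to 0.843 times that of control library 1, with 3.16% to 4.27% of low genes sharing each step. The ribosomal transcript Rn18s-rs5 took 2.17% to 3.90% of all FPKM in YOD1 libraries and 0.421% to 0.733% in control libraries. Yod1 itself stood at 1.73, 7.56 and 1.86 FPKM in YOD1 libraries, against 0.842, 0.757 and 0.684 FPKM in control libraries, and limma did not call it (adjusted p = 0.141), although the authors' deposited table marks it as significant. Of 19 markers of tubular epithelium, 17 were listed and 13 reached the filter, among them Krt18, Pax8 and Cdh16. The nephron segment transporters Slc34a1, Slc12a1 and Slc12a3 were at or near 0 in all 6 libraries. Of 6 immune markers, Cd68 alone reached the filter, Ptprc stayed at 0.071 FPKM or less, and none of the 4 endothelial markers reached it. Of 6 fibroblast markers 3 reached the filter, with Col1a1 at 3.37, 8.04 and 7.85 FPKM in YOD1 libraries and 9.56, 7.05 and 7.37 FPKM in control libraries, and of 3 podocyte markers 2 did, Nphs1 and Synpo. The part of these levels in the results was not tested.

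Of the 55 members, 54 reached at least 1 FPKM in at least 3 of the 6 libraries and were tested. Srsf12, an SR-like protein, did not, with 0.197, 0.200 and 0.143 FPKM in YOD1 libraries and 0.0930, 0.0832 and 0.106 FPKM in control libraries. Differences are on the log2(FPKM + 1) scale, YOD1 minus control, and understate the change of low genes. Of the 54, 1 gene passed limma at an adjusted p of 0.05 over all 11483 genes tested: Sf3b5, a small subunit of SF3b, which was higher with YOD1. Over all genes tested, 0.479% passed, 0.444% higher (51 genes) and 0.0348% lower (4 genes), and 13 higher and 5 lower after correction for transcript length and GC content. A single call among 54 genes does not set the members apart. At an unadjusted p under 0.05 in limma, 5 members were higher and 4 lower, 9 of 54 in all, against 7.87%, 13.0% and 20.9% of all genes tested. Groups did not overlap in 5 members that were higher and 8 that were lower, against 9.77%, 19.1% and, in either direction, 28.9% of all genes tested. The authors' deposited table marks 2 members as significant, Sf3b5 and Snrpf, against 1.75% of the genes tested here.

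The median difference over the 54 members was -0.05, against -0.10 over all genes tested. Of the members 20 were above 0 and 34 below, against 4176 and 7307 of the 11483 genes tested. With median-ratio scaling both medians moved up, to 0.06 for the members and -0.008 over all genes tested. Single members ran from -0.84 (Hnrnpa3) to 1.09 (Snrpf). The 95% interval of the difference lay between -1 and 1 in 47 of 54 members, against 90.9% of all genes tested. For those 47 genes a difference of 1 in either direction lay outside the interval. The members as a group were well expressed, with a median of 25.7 FPKM in YOD1 libraries and 27.0 FPKM in control libraries, against 7.10 and 7.84 FPKM over all genes tested.

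**Figure D1:**
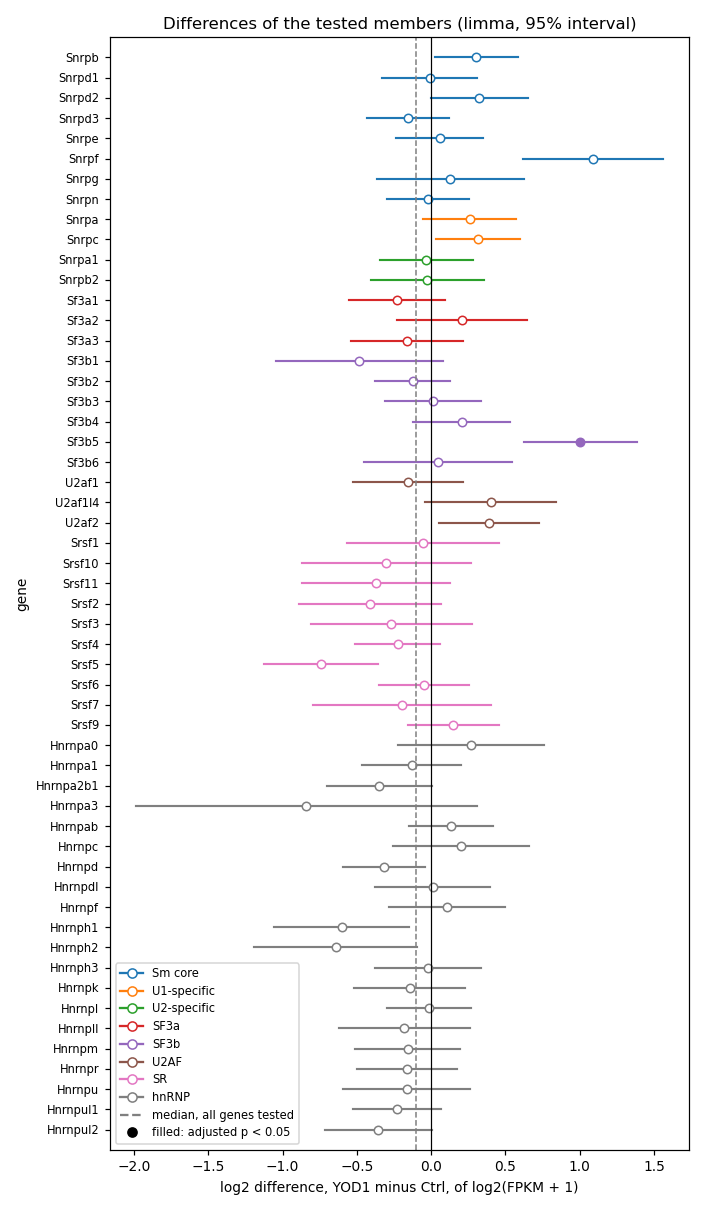
Difference in log2(FPKM + 1), YOD1 minus control, of each of the 54 tested members (horizontal axis, log2 units), with the 95% interval from limma as a bar and colour by role. The filled point, Sf3b5, passed an adjusted p of 0.05, and the dashed line is the median of all genes tested (-0.10).

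The upstream sequences shown are those of members whose groups stood apart, in each direction the pair of lowest p with a single transcription start in the RefSeq table. They are the 250 bases before the start on the gene's own strand in GRCm38.p6, a later build than the mm8 named in the submitters' processing notes. The windows are chr10:93589659-93589908 (minus strand), chr17:27839837-27840086 (plus), chr12:80945249-80945498 (plus) and chr5:99978939-99979188 (minus). Capitals mark matches on either strand to any of 5 motifs. These were the TATA box, searched as TATAAA, the CCAAT box by its own letters, and the GC box, searched as GGGCGG. The ETS motif was searched as CCGGAAG, and the GAS motif known to be bound by STAT factors was searched as TTCNNNGAA. Snrpf and Snrpc were the members with higher values.
Snrpf: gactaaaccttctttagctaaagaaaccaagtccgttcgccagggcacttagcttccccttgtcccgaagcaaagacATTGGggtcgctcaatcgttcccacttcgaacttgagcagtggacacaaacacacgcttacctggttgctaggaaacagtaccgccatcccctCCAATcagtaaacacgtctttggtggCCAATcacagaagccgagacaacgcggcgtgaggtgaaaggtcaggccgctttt
Snrpc: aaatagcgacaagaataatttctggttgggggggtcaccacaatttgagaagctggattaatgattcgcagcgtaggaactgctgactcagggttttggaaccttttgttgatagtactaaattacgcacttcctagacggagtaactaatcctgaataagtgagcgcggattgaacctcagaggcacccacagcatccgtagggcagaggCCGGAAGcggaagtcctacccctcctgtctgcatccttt
Srsf5 and Hnrnpd were the members with lower values.
Srsf5: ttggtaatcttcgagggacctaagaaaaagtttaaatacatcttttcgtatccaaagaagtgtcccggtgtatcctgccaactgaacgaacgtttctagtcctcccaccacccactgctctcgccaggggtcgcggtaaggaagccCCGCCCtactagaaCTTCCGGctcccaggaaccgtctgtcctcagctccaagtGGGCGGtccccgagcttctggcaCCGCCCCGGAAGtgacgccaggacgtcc
Hnrnpd: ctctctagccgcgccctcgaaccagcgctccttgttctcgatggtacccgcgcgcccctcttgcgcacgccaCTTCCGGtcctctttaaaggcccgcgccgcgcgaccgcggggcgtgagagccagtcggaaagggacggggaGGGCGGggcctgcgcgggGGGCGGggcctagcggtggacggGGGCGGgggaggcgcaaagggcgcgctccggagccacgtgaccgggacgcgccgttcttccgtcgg
The Snrpf window held 3 CCAAT boxes and no other motif of the set. The Srsf5 window held 3 GC boxes and 2 ETS motifs, of which 1 pair overlapped, and the Hnrnpd window held 3 GC boxes and 1 ETS motif. The Snrpc window held 1 ETS motif. None of the 4 windows held the TATA box or the GAS motif as spelled here, which says only that these letters are not there.

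RefSeq listed 66 windows for 48 of the 55 members. The ETS motif was present in 28.8% of the 66 member windows and in 6.91% of all 32851 windows of this length. The GC box was present in 66.7% of member windows and 32.7% of all windows, and the CCAAT box in 43.9% and 33.8%. The TATA box was found in 9.09% of member windows and 12.4% of all windows, and the GAS motif in 6.06% and 7.02%. The table covers genes of every type and level, several windows of 1 gene overlap, and a match is a description of the letters and not a bound site.

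The Sm core proteins make the ring of the spliceosomal particles, and their genes differed widely in level. Snrpb, which encodes SmB, was the highest member in the YOD1 libraries, with 288, 270 and 293 FPKM, against 240, 213 and 236 FPKM in control libraries. Every YOD1 library was above every control library, but the difference of 0.30 (SE 0.12) did not pass limma (adjusted p = 0.213). After correction for length and GC content it was 0.12. The other Sm genes were several-fold lower per length. Snrpn, the imprinted near-copy of Snrpb, averaged 24.2 ± 2.00 FPKM in YOD1 libraries and 24.5 ± 1.11 FPKM in control libraries (SD, n = 3 each).

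Snrpf, whose product joins SmE and SmG in a subcomplex of the ring, stood furthest from its Sm partners. It had 24.3, 31.8 and 20.6 FPKM in YOD1 libraries, against 11.2, 8.68 and 14.7 FPKM in control libraries. The groups did not overlap, and the ratio of means was 2.21. Its difference of 1.09 (SE 0.21, 95% interval 0.62 to 1.56) narrowly missed the threshold in limma (adjusted p = 0.0607). In limma it passed with median-ratio scaling (adjusted p = 0.0181), without YOD1 library 3 (0.0311) or without control library 3 (0.0286). Without any other single library it did not pass (limma adjusted p of 0.111 to 0.217), nor with the replicate block (0.117). The difference ran from 0.92 to 1.27 when 1 library was left out. The authors' deposited table marks Snrpf as significant, with q = 6.98e-05. In GENCODE M21 it overlaps Ccdc38 and 4933408J17Rik on the opposite strand, and the library strand is not stated, so reads of these genes cannot be told apart with certainty.

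The ring partners of Snrpf did not show a difference of that size. Snrpe had 34.1, 26.7 and 31.9 FPKM in YOD1 libraries and 28.9, 31.1 and 28.6 FPKM in control libraries, with overlapping groups and a 95% interval of -0.24 to 0.35. Snrpg had 10.4, 8.01 and 10.9 FPKM in YOD1 libraries and 10.8, 10.4 and 5.94 FPKM in control libraries, with an interval of -0.37 to 0.63. Snrpd3 averaged 13.1 ± 0.405 FPKM in YOD1 libraries and 14.7 ± 0.455 FPKM in control libraries (SD, n = 3 each), without overlap, and its difference of -0.16 did not pass limma (adjusted p = 0.473). Snrpd1 and Snrpd2 had intervals of -0.33 to 0.31 and -0.00076 to 0.65. Whether Snrpf differs from its partners was not tested as such.

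The proteins specific to the U1 particle, Snrpa and Snrpc, had a median difference of 0.29. Snrpc had 31.8, 33.9 and 37.6 FPKM in YOD1 libraries, against 28.7, 25.3 and 28.3 FPKM in control libraries, without overlap (0.31, SE 0.13, limma adjusted p = 0.205). Snrpa had 54.9, 61.0 and 63.2 FPKM in YOD1 libraries and 42.2, 51.4 and 56.3 FPKM in control libraries, and the lowest YOD1 value lay below the highest control value. The U2-specific genes Snrpa1 and Snrpb2, whose products pair on U2 RNA, had differences of -0.03 and -0.02.

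SF3b grips the branch point as part of the U2 particle. Sf3b5 rose to 48.2, 46.5 and 54.8 FPKM in YOD1 libraries, against 24.6, 19.05 and 30.5 FPKM in control libraries. The groups did not overlap, and the means were 49.8 ± 4.39 and 24.7 ± 5.72 FPKM (SD, n = 3 each), a ratio of 2.02. The difference was 1.00 (SE 0.17, 95% interval 0.62 to 1.39), with an adjusted p of 0.0429 in limma. It ran from 0.84 to 1.16 when 1 library was left out, and the adjusted p then lay between 0.0158 and 0.138. Without control library 3 it still passed, and without any other single library it did not. With a correction for transcript length and GC content it was 1.12 with an adjusted p of 0.0638 in limma. That correction used its longest annotated transcript, of 3841 bp, which need not be the one expressed. The authors' deposited table marks Sf3b5 as significant, with q = 2.50e-05.

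None of the other SF3b subunits passed the test. Sf3b2 had 126, 120 and 124 FPKM in YOD1 libraries and 135, 136 and 134 FPKM in control libraries, without overlap but with a difference of only -0.13 (SE 0.11, limma adjusted p = 0.526). Sf3b4 was the highest of the complex, with 165, 182 and 216 FPKM in YOD1 libraries and 144, 166 and 176 FPKM in control libraries, and its interval of -0.12 to 0.53 included 0 (difference 0.21, and 0.10 without YOD1 library 3). Sf3b3, the subunit that Sf3b5 packs against, averaged 45.6 ± 2.13 FPKM in YOD1 libraries and 45.7 ± 7.97 FPKM in control libraries (SD, n = 3 each). Sf3b6, which lies at the branch point, had an interval of -0.45 to 0.55. Sf3b1, the scaffold that is often mutated in myelodysplasia, had 5.34, 5.75 and 2.40 FPKM in YOD1 libraries and 6.80, 5.74 and 6.58 FPKM in control libraries. Its difference was -0.48 over all libraries and -0.17 without YOD1 library 3, the single low value.

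SF3a links SF3b to the rest of U2, and none of its 3 genes passed the test. Sf3a1 had 44.0, 47.3 and 51.4 FPKM in YOD1 libraries and 52.2, 67.1 and 49.6 FPKM in control libraries (-0.23, limma adjusted p = 0.369), and without control library 2 the difference was -0.10. Sf3a2 had 53.4, 59.6 and 83.5 FPKM in YOD1 libraries and 44.5, 59.7 and 64.3 FPKM in control libraries, a difference of 0.21 that was 0.02 without YOD1 library 3 and -0.02 after correction for length and GC content. Sf3a3 had an interval of -0.54 to 0.21.

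U2AF finds the end of the intron, and its large subunit U2af2, which reads the pyrimidine tract, was among the most abundant members. It had 158, 155 and 206 FPKM in YOD1 libraries, against 117, 136 and 141 FPKM in control libraries. No YOD1 library fell below a control library, and the difference of 0.39 (SE 0.15) did not pass limma (adjusted p = 0.199). Without YOD1 library 3 it was 0.25. The small subunit U2af1, which contacts the terminal AG, had 43.9, 34.4 and 47.2 FPKM in YOD1 libraries and 50.0, 52.1 and 38.1 FPKM in control libraries (-0.16). U2af1l4, a U2af1 relative, averaged 8.40 ± 2.10 FPKM in YOD1 libraries and 6.07 ± 1.16 FPKM in control libraries (SD, n = 3 each) and overlaps Psenen on the opposite strand.

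**Figure D2:**
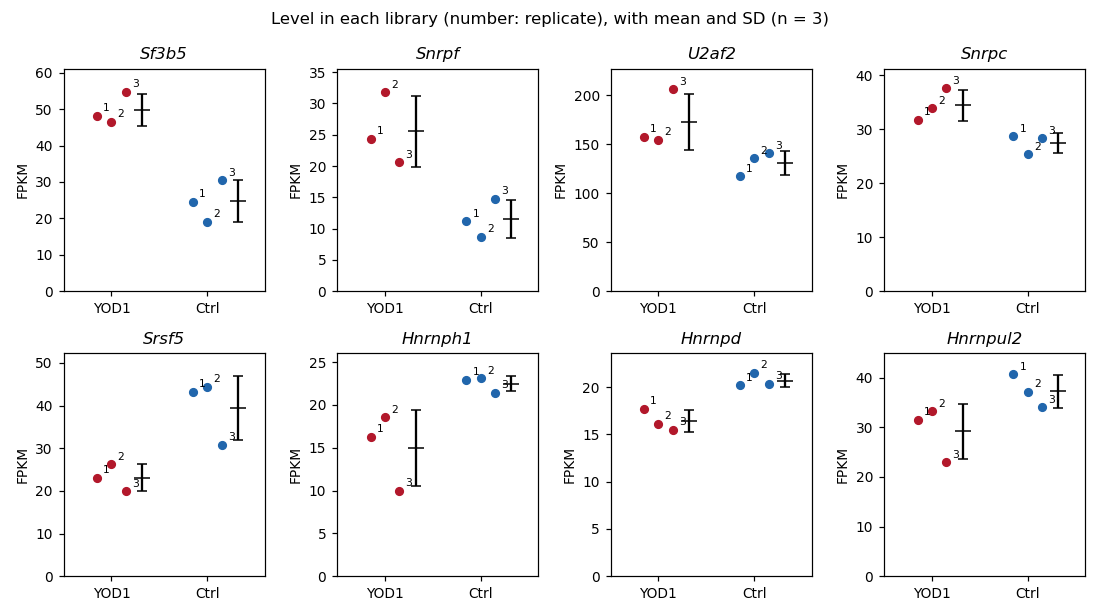
FPKM (vertical axis, from 0) in each library for 8 members whose groups did not overlap, YOD1 on the left and control on the right, with the replicate number beside each point and the mean ± SD (n = 3) as a bar. Sf3b5 and Snrpf were near 2-fold higher in YOD1 libraries, Srsf5 was lower, and YOD1 library 3 was the lowest point for Srsf5, Hnrnph1, Hnrnpd and Hnrnpul2.

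SR proteins, the exon-binding activators, had a median difference of -0.25 over 10 tested genes, with none past the threshold in limma. Of the 10, 9 were below 0, against 7307 of all 11483 genes tested. At an unadjusted p under 0.05 in limma 1 was lower, against 13.0% of all genes tested. Srsf5, an SR protein known from rat liver as an insulin-induced gene, lay lowest of the family. It had 23.0, 26.2 and 19.9 FPKM in YOD1 libraries, against 43.2, 44.4 and 30.8 FPKM in control libraries. The groups did not overlap, and the ratio of means was 0.584. Its difference of -0.74 (SE 0.17, 95% interval -1.12 to -0.36) did not pass limma (adjusted p = 0.0931), and without control library 3 it did (-0.91, adjusted p = 0.0308). Without any other single library it did not pass (limma adjusted p of 0.110 to 0.319), with differences from -0.84 to -0.64. The authors' deposited table gives Srsf5 q = 0.0293 and a log2 ratio of -0.78, without a mark of significance.

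Control library 3 was the lowest of the controls for several SR genes. Srsf2, which binds purine- and pyrimidine-rich exon motifs alike, had 33.0, 31.2 and 26.2 FPKM in YOD1 libraries and 49.1, 48.0 and 27.5 FPKM in control libraries. Srsf7, which also takes part in mRNA export, had 23.2, 20.7 and 20.5 FPKM in YOD1 libraries and 35.2, 29.1 and 14.6 FPKM in control libraries. In both genes the first and second controls lay above every YOD1 library while the third lay within or below them. The same control was the lowest of the 3 in 6 of 10 SR genes, against 30.6% of all genes tested. Without it the differences were -0.68 for Srsf2 (limma adjusted p = 0.0586) and -0.56 for Srsf7 (limma adjusted p = 0.0987), in place of -0.41 and -0.20.

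None of the remaining SR genes passed the test either. Srsf4 had 11.7, 12.5 and 11.45 FPKM in YOD1 libraries and 13.5, 14.98 and 13.8 FPKM in control libraries, without overlap (-0.22, limma adjusted p = 0.322). Srsf9 had 63.3, 59.2 and 71.5 FPKM in YOD1 libraries and 50.2, 62.1 and 62.6 FPKM in control libraries, and it was the only SR gene with a difference above 0 (0.15). Srsf6 averaged 50.9 ± 4.09 FPKM in YOD1 libraries and 52.8 ± 6.77 FPKM in control libraries (SD, n = 3 each). Srsf1, the founding SR protein, had 34.9, 35.9 and 19.4 FPKM in YOD1 libraries and 36.1, 26.5 and 28.5 FPKM in control libraries, so that its difference was -0.05 over all libraries and 0.23 without YOD1 library 3. Srsf3, Srsf10, a splicing repressor when dephosphorylated, and Srsf11 had differences of -0.27, -0.30 and -0.37 with intervals that included 0. Without YOD1 library 3 these were -0.08, 0.02 and -0.11, and without control library 1 Srsf3 was at -0.04.

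The hnRNP genes had a median difference of -0.16 over 20 members, with none past the threshold in limma. Of the 20, 15 were below 0, against 7307 of all 11483 genes tested. At an unadjusted p under 0.05 in limma 3 were lower, against 13.0% of all genes tested. Hnrnph1, which binds runs of G, had 16.3, 18.5 and 9.98 FPKM in YOD1 libraries, against 23.0, 23.1 and 21.4 FPKM in control libraries. All YOD1 values were below all control values, and the difference of -0.60 (SE 0.20) did not pass limma (adjusted p = 0.161). Its close relative Hnrnph2 had 11.7, 12.8 and 6.70 FPKM in YOD1 libraries and 20.2, 17.2 and 12.3 FPKM in control libraries, with 1 YOD1 value above the lowest control (-0.64, limma adjusted p = 0.194). Without YOD1 library 3 these differences were -0.35 and -0.38. Hnrnpf, the third G-run binder, was far more abundant, with 191, 173 and 130 FPKM in YOD1 libraries and 178, 133 and 144 FPKM in control libraries.

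Hnrnpd, also known as AUF1 and a regulator of mRNA decay at AU-rich elements, had 17.7, 16.1 and 15.5 FPKM in YOD1 libraries, against 20.2, 21.5 and 20.4 FPKM in control libraries. Both groups were tight and did not overlap, yet the difference of -0.32 (SE 0.12) did not pass limma (adjusted p = 0.199), and after correction for length and GC content it was -0.07. The SAF-A relatives Hnrnpul1 and Hnrnpul2 were also below every control library. Hnrnpul1 averaged 25.8 ± 2.72 FPKM in YOD1 libraries and 30.4 ± 2.24 FPKM in control libraries (SD, n = 3 each, limma adjusted p = 0.326). Hnrnpul2 averaged 29.2 ± 5.53 FPKM in YOD1 libraries and 37.3 ± 3.33 FPKM in control libraries (SD, n = 3 each, limma adjusted p = 0.242). The differences of Hnrnpul1 and Hnrnpul2 were -0.23 and -0.35, and without YOD1 library 3 they were -0.14 and -0.19.

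The most abundant hnRNPs showed overlapping groups. Hnrnpab had 286, 250 and 271 FPKM in YOD1 libraries and 233, 249 and 253 FPKM in control libraries (0.13, limma adjusted p = 0.547). Hnrnpa1, a classical splicing silencer, averaged 137 ± 19.5 FPKM in YOD1 libraries and 150 ± 15.7 FPKM in control libraries, and Hnrnpa2b1 averaged 107 ± 18.99 FPKM in YOD1 libraries and 135 ± 12.8 FPKM in control libraries (SD, n = 3 each). Hnrnpc, which binds uridine tracts, Hnrnpk, which binds C-rich stretches, and Hnrnpl, which binds CA repeats, had differences of 0.20, -0.15 and -0.02. Hnrnpa3 varied most within groups, with 0.483, 4.03 and 0.670 FPKM in YOD1 libraries and 5.06, 4.80 and 1.04 FPKM in control libraries, and its interval of -1.99 to 0.31 resolved no direction. Hnrnpa0, Hnrnpdl, Hnrnph3, Hnrnpll, Hnrnpm, Hnrnpr and Hnrnpu had overlapping groups and differences between -0.18 and 0.27. Genes of these families have processed pseudogenes and close copies, and how reads that fit several places were counted is not given, so single values are uncertain to that degree. Overlaps with a gene on the opposite strand in GENCODE M21 are also annotated for other members, and the same limit holds for them. They are Snrpa, Snrpd3, Snrpg, Snrpn, Sf3a2, Sf3b2, Sf3b3, Sf3b4, Srsf1, Srsf2, Srsf4, Hnrnpab, Hnrnpd, Hnrnpf, Hnrnph3, Hnrnpk, Hnrnpl, Hnrnpll, Hnrnpr and Hnrnpu. A gene on the same strand overlaps Snrpa1, Snrpn, U2af1l4, Sf3a3, Sf3b3, Sf3b4, Srsf4, Srsf11, Hnrnpa3, Hnrnpk, Hnrnpm and Hnrnpul2. At these genes strand would not separate the reads.

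**Figure D3:**
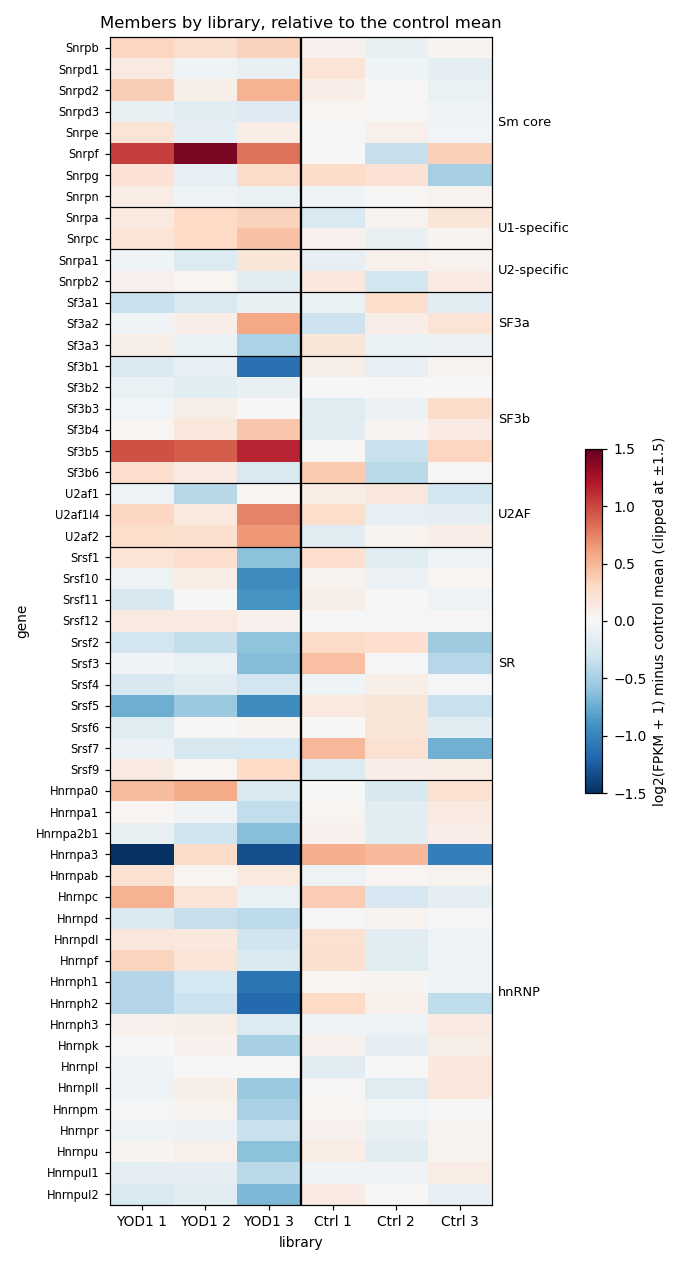
Each of the 55 members (rows, by role) in each library (columns, YOD1 left of the line and control right of it), as log2(FPKM + 1) minus the mean of the control libraries, with red above and blue below. Sf3b5 and Snrpf are red in all 3 YOD1 libraries, and for most SR and hnRNP genes the deepest blue of the row lies in YOD1 library 3.

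YOD1 library 3 gave the low value for many SR and hnRNP genes. It was the lowest of all 6 libraries in 15 of 20 hnRNP genes and 7 of 10 tested SR genes, but in 2 of 12 Snrp genes, against 42.5% of all genes tested. The median SR gene lay 0.61 below its control mean in YOD1 library 3, with medians of -0.14 and -0.05 in YOD1 libraries 1 and 2. For hnRNP genes the medians were -0.05, 0.04 and -0.40 in YOD1 libraries 1, 2 and 3, and over all genes tested they were -0.06, -0.04 and -0.18. In YOD1 library 3 the median was also -0.54 for kinases of SR proteins and SR-related proteins, -0.43 for other RNA-binding regulators, -0.39 for early spliceosome genes, and -0.37 for all tested genes longer than the median. Without YOD1 library 3 the median difference was -0.10 for SR genes and -0.003 for hnRNP genes, against -0.05 over all genes tested.

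**Figure D4:**
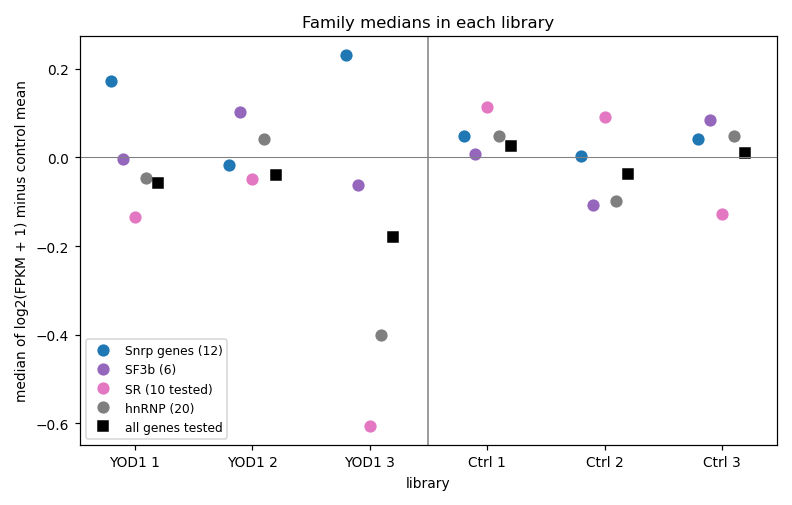
Median over the genes of a family of log2(FPKM + 1) minus the control mean (vertical axis), in each library (horizontal axis, YOD1 left of the line). SR genes at -0.61 and hnRNP genes at -0.40 in YOD1 library 3 lie below Snrp genes and all genes tested (-0.18).

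Differences among the members varied with transcript length and with GC content. The Snrp genes, with a median length of 1555 bp for the longest annotated transcript, had a median difference of 0.09, and the SR and hnRNP genes, with median lengths of 3294 and 3714.5 bp, had -0.25 and -0.16. Across the 54 members, which are not independent replicates, difference and length had a Spearman correlation of -0.56, against -0.40 over 11386 tested genes with a known length. Difference and GC content had a Spearman correlation of 0.44, against 0.22 over the same tested genes. All of these points share the same 6 libraries. Members at or above the median GC content of tested genes had a median of 0.21 (13 genes), and those below had -0.15 (41 genes). The same split of all genes tested gave -0.04 and -0.16. Members shorter than the median tested gene had a median of 0.08 (28 genes), and longer ones had -0.23 (26 genes), against 0.01 and -0.20 over all genes tested. Relative to each gene's control mean, the median of shorter members lay above that of longer ones by 0.26, 0.16 and 0.54 in YOD1 libraries 1, 2 and 3. Over tested genes with a known length these gaps were 0.20, 0.05 and 0.39. The control libraries define that mean, so their own gaps among members (0.02, 0.04 and 0.06) are small by construction. After each library was corrected for length and GC content, the medians were -0.003 for Snrp, -0.16 for SR and -0.05 for hnRNP genes, against -0.09 over all genes. Srsf5 then stood at -0.62, Hnrnph1 at -0.43 and Snrpf at 0.99, with limma adjusted p of 0.0946, 0.139 and 0.0691.

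**Figure D5:**
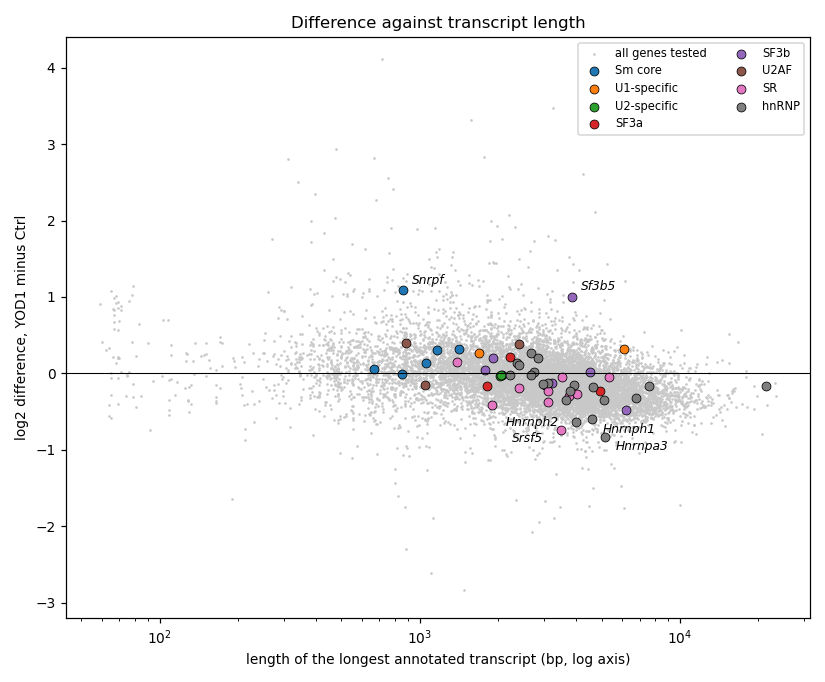
Difference in log2(FPKM + 1), YOD1 minus control (vertical axis), against the length of the longest annotated transcript (bp, log axis), for all tested genes in grey and the members in colours by role. Longer members lie lower, as the grey cloud does. Sf3b5 (1.00) lies above and Srsf5 (-0.74) below the median of tested genes longer than the median length (-0.20). The longest annotated transcript need not be the one expressed.

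Transcript types linked to unproductive splicing were annotated more often for members than for protein-coding genes tested, though not in every family. A nonsense-mediated decay type was annotated for 27 of the 54 tested members (50.0%), against 24.5% of protein-coding genes tested, and for 9 of 10 SR genes. It was annotated for 3 of 3 U2AF and 10 of 20 hnRNP genes, but 4 of 12 Snrp, 1 of 6 SF3b and 0 of 3 SF3a genes. A retained-intron type was annotated for 41 of 54 (75.9%), against 60.0%. Of the 133 tested genes in the related splicing lists below, 39.1% had a decay type and 72.9% a retained-intron type. The decay type ranged there from 1 of 13 exon junction and decay genes to 12 of 16 early spliceosome genes. These annotations were thus not particular to the members. Members were also higher in level than protein-coding genes tested (median 25.7 against 7.78 FPKM in YOD1 libraries), and the part of level was not tested. Members with a decay type had a median difference of -0.15 and those without one -0.01, which were -0.03 and 0.02 without YOD1 library 3, and -0.05 and -0.02 after correction for length and GC content. FPKM per gene adds productive and unproductive transcripts together, so these values say nothing of their balance. The deposited pathway column placed 38 of the 54 in the spliceosome pathway.

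Other genes of the splicing machinery were read from 7 lists of 141 genes, of which 133 were tested. At an unadjusted p under 0.05, 9 were higher and 23 lower, against 7.87% and 13.0% of all genes tested. One passed the limma test and was higher, Lsm4, an Sm-like protein of the ring on U6 RNA and of the mRNA decay ring. Lsm4 had 138, 170 and 134 FPKM in YOD1 libraries, against 73.0, 76.0 and 87.7 FPKM in control libraries (0.89, SE 0.14, adjusted p = 0.0342 in limma). The groups did not overlap. Lsm4 did not pass with length and GC correction, with the replicate block, without a filter, or without any single one of YOD1 libraries 1 and 2 and control libraries 1 and 2. It was among the 22 LSm and SMN complex genes, the factors that form and load Sm and Sm-like rings. Their median difference was 0.12, and 15 were above 0, against 4176 of all 11483 genes tested. The median was 0.05 after correction for length and GC content, and 0.06 to 0.19 when 1 library was left out.

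Kinases of SR proteins and SR-related proteins had the lowest median, -0.37 over 18 tested genes, and none passed limma. Below 0 were 17 of the 18, against 7307 of all 11483 genes tested. The median was -0.20 without YOD1 library 3, which was the lowest of the 6 libraries in 14 of the 18, and -0.28 after correction for length and GC content. Of these genes, 7 had an unadjusted p under 0.05 and 5 did not overlap between groups, all lower, against 13.0% and 19.1% of all genes tested. Pnn, a nuclear speckle protein, and Acin1, an exon junction partner, came first by p with differences of -0.71 and -0.45. The 25 tri-snRNP and Prp19 complex genes had a median of -0.12, and Snrnp40 and Prpf19 came first by p with 0.57 and 0.49. Early spliceosome genes had a median of -0.14 over 16 (Prpf40b -0.45), late-step genes -0.17 over 8 (Slu7 -0.56, Dhx38 -0.30), other RNA-binding regulators -0.12 over 31 (Ddx17 -0.60, Raly 0.40), and exon junction and decay genes -0.17 over 13 (Upf3b -0.50, Smg6 -0.49). Without YOD1 library 3 the medians were -0.10 for early, 0.004 for tri-snRNP and Prp19, -0.15 for late-step, 0.03 for other regulator and -0.08 for exon junction and decay genes. After correction for length and GC content they were -0.02, -0.04, -0.13, 0.004 and -0.12 in the same order. The exon junction and decay median was also -0.07 without control library 1, the tri-snRNP and Prp19 median -0.07 without control library 1, -0.18 without control library 3 and -0.21 without YOD1 library 2. The other medians that moved by over 1.5 times on leaving out 1 library were the early one (-0.23 without YOD1 library 2), the late-step one (-0.29 without control library 3) and that of other regulators (-0.21 and -0.19 without YOD1 libraries 1 and 2). None of these named genes other than Lsm4 passed the limma test over all genes.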

How the data were processed

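RNA-seq of 6 samples of TCMK1 cells was analysed, 3 with YOD1 overexpression and 3 controls, grouped by sample title. The members and gene lists were chosen with earlier results of these data known. Per the file headers, expression was deposited as FPKM for each gene and library. Tools named in the submitters' processing notes are Bowtie 0.12.2, HISAT2 2.0 and StringTie 1.3.0, and mm8 is the build named there, none of them tied to a step. Per the file headers, the authors also gave each gene a fold (a ratio of means), a log2 fold, a p-value and a q-value. Which test gave these is not stated. The number of per-sample columns left unused was 0.

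Values were set to log2(FPKM + 1). The filter asked for 1 FPKM or more in 3 or more of the 6 libraries and left 11483 of 28789 genes. The test was limma 3.58.1, run in R 4.3.3 (trended variance moderation, two-sided, Benjamini-Hochberg adjustment over all genes tested) at 0.05. Intervals are 95% intervals from the same model. An exact permutation test of 3 against 3 cannot give a p below 0.1, so none was run. The script was tested on simulated data.

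Named members were those past the threshold, up to 10 of lowest p per direction with non-overlapping groups, and the 2 of highest level per family, with others added after their values were seen. In the related lists, genes past the threshold or the 2 of lowest p were named, and 1 such gene is not reported here. Length and GC content were those of the longest annotated transcript, which need not be the one expressed. They came from GENCODE M21 by transcript identifier (99.2% of tested genes matched). That annotation and the RefSeq upstream sequences (GRCm38.p6) belong to a later build than mm8. Alternatives were no filter, a filter at 5 FPKM, a pseudocount of 0.1, median-ratio scaling, length and GC correction by splines with 4 degrees of freedom, a replicate block, and fits without 1 library at a time. Library pairs shared 0 to 6 identical values above 0. Python 3.11.15, numpy 2.4.6, pandas 2.3.3 and matplotlib 3.10.9 were used.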

Additional observations from a re-analysis of the deposited data

How the results depend on the processing

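Sf3b5 was the member called with a filter at 5 FPKM and with the replicate block. The number of members called was 0 without a filter, with a pseudocount of 0.1 and with length and GC correction in limma, where 10, 9 and 9 members had an unadjusted p under 0.05. It was 2 with median-ratio scaling (Sf3b5 and Snrpf) and 0 to 3 when 1 library was left out: 3 without control library 3 (Sf3b5, Snrpf and Srsf5), 1 without YOD1 library 3 (Snrpf), and 0 without each of the other 4. Over all genes the calls numbered 55, against 0 without a filter (3427 at an unadjusted p under 0.05), 169 with median-ratio scaling, 18 with length and GC correction, and 19 to 242 when 1 library was left out. In the related lists the count was 1, against 0 without a filter, 0 with length and GC correction, 2 with median-ratio scaling, and 0 to 3 when 1 library was left out. The median of the members was -0.05, 0.0579 with median-ratio scaling (-0.00802 over all genes tested), and -0.112 to 0.0210 when 1 library was left out. Over the 22 named members and 12 alternatives, 246 of 264 values kept direction and side of the threshold. Only Sf3b5 was called in the main fit, so for the others keeping side meant staying uncalled. Sf3b5 lost its call in 8 of the 12 alternatives. The sign reversed for Srsf6 with median-ratio scaling (0.0617), length and GC correction (0.0713), without YOD1 library 1 (0.0184) and without control library 2 (0.0452; range without 1 library -0.135 to 0.0452), for Sf3a2 with length and GC correction (-0.0166) and for Hnrnpf without YOD1 library 1 (-0.00973; range -0.00973 to 0.268), and none of these was called. Without a filter 28789 genes were tested and the variance trend was fitted over genes near 0. For the other changes the cause was not tested. The replicate block gave 41 calls over all genes, 1 among the members and 0 in the related lists, but the numbers are not shown to pair the samples: deviations of same-numbered libraries correlated across genes at 0.30, -0.12 and -0.11. Read depth is unknown, and precision rests on 3 libraries per group.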

Other observations

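The member rule left out 4 names of these families, as not protein-coding or as containing -ps. Snrpert had 13.0, 6.63 and 9.44 FPKM in YOD1 libraries and 8.23, 7.95 and 9.47 FPKM in control libraries, a level near that of Snrpg, with overlapping groups (log2 difference 0.12, limma adjusted p = 0.756). Srsf3-ps had 0.189, 0.185 and 0.192 FPKM in YOD1 libraries and 0.264, 0.309 and 0.342 FPKM in control libraries, without overlap, and was below the filter. Hnrnpa1l2-ps and Hnrnpa1l2-ps2 stayed at or under 0.591 FPKM in every library.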
